A study of Mus musculus with 19 samples.

Results

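Sensory neuron transcription factors are described here across 19 Affymetrix arrays of mouse sciatic nerve. The list held 10 genes, namely Isl1, Isl2, Pou4f1, Pou4f2, Prrxl1, Tlx3, Runx1, Runx3, Shox2 and Etv1. It was drawn up with earlier results of these arrays known, and a gene was taken as measured when it had a probe set annotated with its symbol alone. This held for 8 of the 10, out of 18193 genes with a symbol, each read from whichever of its probe sets had the greatest average level on the 19 arrays. Etv1 shared each of its 3 probe sets with the gene model Gm5454, and Pou4f2 had no named probe set, so both were not analysed. Tlx3, with a mean of 5.10, lay under the filter on low values, which left 7 members among the 13460 genes tested.

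All mice were of the inbred strain DBA/2J. The 4 groups were control mice given vehicle by their titles, with treatment listed as none (4 arrays, CV702 to CV705), mice made diabetic with streptozotocin and given vehicle (5 arrays, DV706 to DV710), control mice given rosiglitazone (5 arrays, CR711 to CR715) and mice given both streptozotocin and rosiglitazone (5 arrays, DR716 to DR720). Streptozotocin destroys the insulin-producing cells of the pancreas, and rosiglitazone activates the nuclear receptor PPAR gamma. The design text names 5 mice a group and 1 control array left out for quality, and arrays are named here by group and title number. Doses, ages and the length of treatment are not given in the sources used here.

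Sensory neurons of the trunk and limbs have their cell bodies in the dorsal root ganglia and send axons into nerves such as the sciatic. Isl1 and Pou4f1 are switched on in nearly all of these neurons as they leave the cell cycle and remain on in adults, where they control genes shared by the sensory lineage. Prrxl1 and Tlx3 act in pain-sensing neurons and in the spinal cord neurons that they contact. Runx1 directs the diversity of pain-sensing neurons, while Runx3, Shox2 and Etv1 act in neurons of touch and muscle sense. Messenger RNA for nuclear factors is made in the cell body, and the nerve trunk itself holds mostly Schwann cells, axons, fibroblasts, vessels and immune cells.

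Myelin genes of the labelled tissue were strongly present on every array. Mbp, which encodes myelin basic protein, was at 14.15 on the log2 scale as the mean of 5 arrays set apart below and 14.22 on the others, and 7 of 7 measured Schwann cell and myelin markers lay above the filter level of 5.54. The intensities are linear RMA values, given here as log2 levels. The median intensity ran from 83.3 to 88.0 on the 5 arrays set apart and from 93.3 to 101.7 on the others, with no overlap. The part of this difference in the levels below was not tested. Gapdh control probe sets at the 3' end exceed those at the 5' end more in broken RNA, and this log2 difference was 3.71 in array DV706, 4.38 in array DV707 and 1.75 in array DR716, and lay between 1.00 and 1.37 on the other 16.

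The 250 bases before the transcription start are shown for 3 members that differ in their levels, namely Isl1, with a wide gap between arrays, Tlx3, at the low end of the scale, and Shox2, with its mean turned the other way. They come from RefSeq, build GRCm38.p6, where 10 of 10 members matched by symbol, and only members whose start lies at the edge of the gene model were considered. Isl1 (chr13:116309689-116309938), Tlx3 (chr11:33203589-33203838) and Shox2 (chr3:66981772-66982021) all lie on the minus strand and are written 5′ to 3′ in gene direction. Capitals mark the core TAAT that homeodomain proteins bind, on either strand, so that the other strand reads ATTA.
Isl1: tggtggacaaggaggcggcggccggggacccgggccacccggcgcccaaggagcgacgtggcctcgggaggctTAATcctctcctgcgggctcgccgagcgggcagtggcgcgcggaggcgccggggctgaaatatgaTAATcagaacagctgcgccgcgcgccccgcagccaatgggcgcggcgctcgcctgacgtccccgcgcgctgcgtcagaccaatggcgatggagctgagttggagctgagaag
Tlx3: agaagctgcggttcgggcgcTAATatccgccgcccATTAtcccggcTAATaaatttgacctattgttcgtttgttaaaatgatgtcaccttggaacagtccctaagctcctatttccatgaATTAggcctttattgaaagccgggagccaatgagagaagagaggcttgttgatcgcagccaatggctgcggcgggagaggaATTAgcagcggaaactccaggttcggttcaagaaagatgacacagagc
Shox2: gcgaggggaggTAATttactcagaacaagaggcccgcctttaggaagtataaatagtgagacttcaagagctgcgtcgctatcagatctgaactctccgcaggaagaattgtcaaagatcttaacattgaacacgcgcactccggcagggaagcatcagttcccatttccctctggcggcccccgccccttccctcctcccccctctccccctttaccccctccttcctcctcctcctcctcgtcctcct
The window of Tlx3 held 5 matches to TAAT on both strands together, that of Isl1 2 and that of Shox2 1. Of 32851 windows of the same length, 54.9% held at least 1. The CCAAT box occurred 2 times before Isl1, 2 times before Tlx3 and 0 times before Shox2, against at least 1 match on either strand in 33.8% of all windows. These matches describe the letters only.

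Isl1 is a LIM-homeodomain factor required for the survival and identity of sensory neurons. It was at 10.26, 10.95, 10.46 and 10.11 in the control vehicle arrays CV702, CV703, CV704 and CV705. In the diabetic vehicle arrays DV706 to DV710 it was at 5.21, 6.04, 11.35, 3.97 and 10.91. Control mice given rosiglitazone, arrays CR711 to CR715, were at 9.98, 11.26, 10.82, 10.52 and 6.41. Arrays DR716 to DR720, from diabetic mice given the drug, were at 3.83, 11.12, 10.97, 9.47 and 10.75. The low values were those of arrays DV706, DV707, DV709, CR715 and DR716, and no other array was below 9.47.

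These 5 arrays had been set apart by their low sensory neuron transcripts, Isl1 and Pou4f1 among them, so the gap to the other 14 is a description of the choice and was not tested. They comprise 3 of the 5 diabetic vehicle arrays, 1 control rosiglitazone array, 1 diabetic rosiglitazone array and 0 of the 4 control vehicle arrays. Isl1 was at 5.09 ± 1.17 (SD, n = 5) on the arrays set apart and 10.64 ± 0.54 (SD, n = 14) on the others, a ratio of 46.6-fold. The array nearest to the gap from below was CR715 at 6.41, and that nearest from above was DR719 at 9.47. In such bulk RNA, fewer cells of a type and less RNA per cell cannot be told apart.

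**Figure D1:**
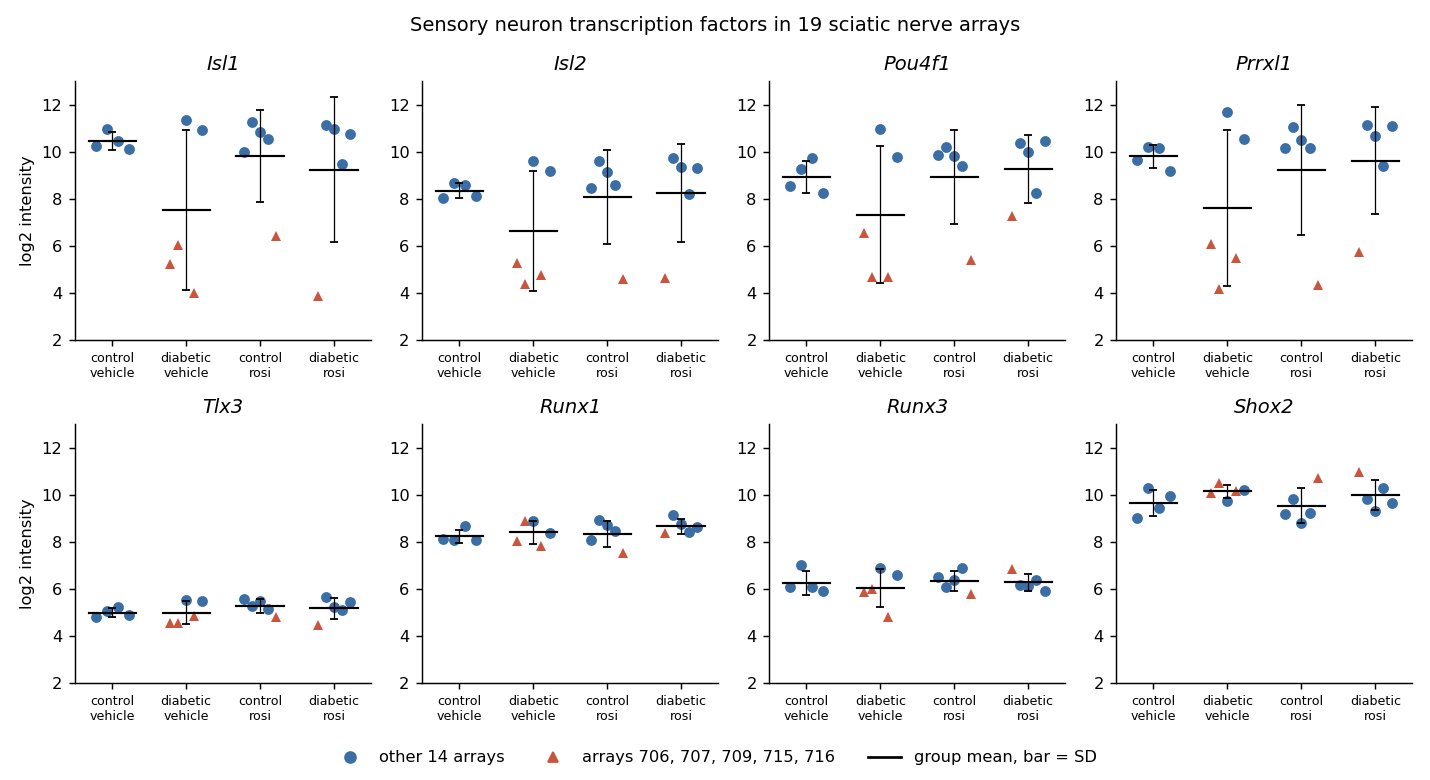
Log2 intensity of the 8 measured members (y axis) in the 4 groups (x axis), 1 point an array, with triangles for the 5 arrays set apart, circles for the other 14, and lines and bars for the group mean and SD. Triangles lie apart from all circles for Isl1, Isl2, Pou4f1 and Prrxl1, and among or near the circles for Tlx3, Runx1, Runx3 and Shox2.

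Isl2, the close relative of Isl1 that marks sensory and motor neurons, had a gap between the same arrays. Control vehicle arrays CV702 to CV705 were at 8.01, 8.67, 8.56 and 8.10, and diabetic vehicle arrays DV706 to DV710 at 5.25, 4.36, 9.58, 4.74 and 9.16. Arrays CR711 to CR715 were at 8.44, 9.61, 9.13, 8.59 and 4.56, and arrays DR716 to DR720 at 4.64, 9.71, 9.35, 8.20 and 9.28. Its mean was 4.71 ± 0.33 (SD, n = 5) on the arrays set apart and 8.88 ± 0.59 (SD, n = 14) on the others, a ratio of 18.0-fold. All 5 low arrays lay within 4.36 to 5.25, a narrower range than the 3.83 to 6.41 of Isl1 on the same arrays.

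Pou4f1, the POU-homeodomain factor Brn3a, works with Isl1 to end early neuronal programmes and start sensory ones. It was at 8.51, 9.27, 9.71 and 8.23 in arrays CV702 to CV705 and at 6.54, 4.68, 10.95, 4.66 and 9.77 in arrays DV706 to DV710. With rosiglitazone it was at 9.86, 10.20, 9.81, 9.39 and 5.40 in control arrays CR711 to CR715 and at 7.26, 10.38, 9.997, 8.23 and 10.44 in diabetic arrays DR716 to DR720. The mean was 5.70 ± 1.16 (SD, n = 5) against 9.62 ± 0.83 (SD, n = 14), a ratio of 15.1-fold, and array DR716 came within 0.97 of the lowest of the other 14.

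Prrxl1, the paired-type homeodomain factor also called Drg11, is needed for the wiring of pain-sensing neurons to the spinal cord. It was at 9.63, 10.18, 10.16 and 9.17 in arrays CV702 to CV705, and at 6.06, 4.16, 11.68, 5.47 and 10.53 in arrays DV706 to DV710. Arrays CR711 to CR715 were at 10.14, 11.04, 10.51, 10.14 and 4.31, and arrays DR716 to DR720 at 5.73, 11.13, 10.66, 9.38 and 11.10. The mean was 5.15 ± 0.86 (SD, n = 5) on the arrays set apart and 10.39 ± 0.71 (SD, n = 14) elsewhere, 37.9-fold higher on the latter.

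Isl1 and Pou4f1 each had a second probe set in which the same 5 arrays lay below the other 14. That of Isl1, 1422720_at, was at 6.41, 6.65, 4.75, 5.67 and 5.33 in arrays DV706, DV707, DV709, CR715 and DR716 and between 7.20 and 9.55 on the other 14. That of Pou4f1, 1429668_at, was at 4.70, 3.27, 2.30, 2.87 and 4.02 in the same 5 arrays and between 6.51 and 8.95 on the others. The mean difference of 1422720_at was smaller than that of the chosen Isl1 probe set, at -2.79 against -5.54. As ratios these were 6.92-fold and 46.6-fold, so the size of the gap of Isl1 depended on the probe set read. Many levels of Isl1, Isl2, Pou4f1 and Prrxl1 on the arrays set apart lay under the filter level of 5.54, so no order among these arrays was read from them.

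Tlx3, a homeodomain factor that selects the excitatory fate of sensory and spinal neurons, had low signal on every array, from 4.48 in array DR716 to 5.63 in array DR717. It was at 4.79, 5.04, 5.23 and 4.87 in arrays CV702 to CV705, and at 4.52, 4.54, 5.53, 4.84 and 5.48 in arrays DV706 to DV710. Arrays CR711 to CR715 were at 5.56, 5.27, 5.47, 5.15 and 4.80, and arrays DR716 to DR720 at 4.48, 5.63, 5.22, 5.08 and 5.42. The mean was 4.64 ± 0.17 (SD, n = 5) on the arrays set apart and 5.27 ± 0.26 (SD, n = 14) on the others, and 3 of the 5 lay below all 14. How many of all genes share that pattern was not computed. No detection calls were used.

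Runx1, the runt-domain factor of pain-sensing neurons, is also made in blood-forming and immune cells. Arrays CV702 to CV705 were at 8.10, 8.09, 8.65 and 8.08, and arrays DV706 to DV710 at 8.01, 8.87, 8.89, 7.83 and 8.38. Control rosiglitazone arrays CR711 to CR715 were at 8.07, 8.91, 8.72, 8.47 and 7.51, and arrays DR716 to DR720 at 8.38, 9.16, 8.77, 8.41 and 8.61. The arrays set apart overlapped the others, with 8.12 ± 0.52 (SD, n = 5) against 8.52 ± 0.35 (SD, n = 14), and array DV707 was among the higher ones. Of the 6 probe sets of Runx1, 4 had a lower and 2 a higher mean on the arrays set apart. In 1422864_at the mean was 6.90 ± 0.12 (SD, n = 5) against 7.56 ± 0.27 (SD, n = 14), and its highest low array, at 7.055, was just under the lowest of the others, at 7.058. In 1427650_a_at the mean was 7.97 against 7.77, with array DV709 alone at 9.18.

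Runx3, needed by neurons of muscle sense and also made in lymphocytes, was at 6.07, 6.999, 6.05 and 5.89 in arrays CV702 to CV705 and at 5.85, 6.00001, 6.88, 4.80 and 6.57 in arrays DV706 to DV710. With rosiglitazone it was at 6.51, 6.07, 6.37, 6.89 and 5.78 in arrays CR711 to CR715 and at 6.83, 6.17, 6.11, 6.36 and 5.89 in arrays DR716 to DR720. The arrays set apart were at 5.85 ± 0.72 (SD, n = 5) and the others at 6.35 ± 0.37 (SD, n = 14), with overlap. Its other probe set, 1421467_at, went the other way, at 6.11 ± 0.30 (SD, n = 5) against 5.55 ± 0.17 (SD, n = 14). The direction of Runx3 therefore depended on the probe set read.

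Shox2, a paired-type homeodomain factor that promotes the TrkB-bearing touch neurons and is also made in connective tissue, was the only measured member with its mean higher on the arrays set apart. It was at 9.001, 10.28, 9.42 and 9.94 in arrays CV702 to CV705 and at 10.08, 10.52, 9.74, 10.15 and 10.21 in arrays DV706 to DV710. Arrays CR711 to CR715 were at 9.17, 9.80, 8.80, 9.22 and 10.71, and arrays DR716 to DR720 at 10.96, 9.80, 9.31, 10.27 and 9.65. The mean was 10.48 ± 0.37 (SD, n = 5) against 9.62 ± 0.48 (SD, n = 14), a ratio of 1.82-fold, and 3 of the 5 lay above all 14. The share of all genes with that pattern was not computed, so it is not read as particular to Shox2. Its second probe set, 1420559_a_at, had the same direction, at 6.31 ± 0.27 (SD, n = 5) against 5.43 ± 0.37 (SD, n = 14).

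**Figure D2:**
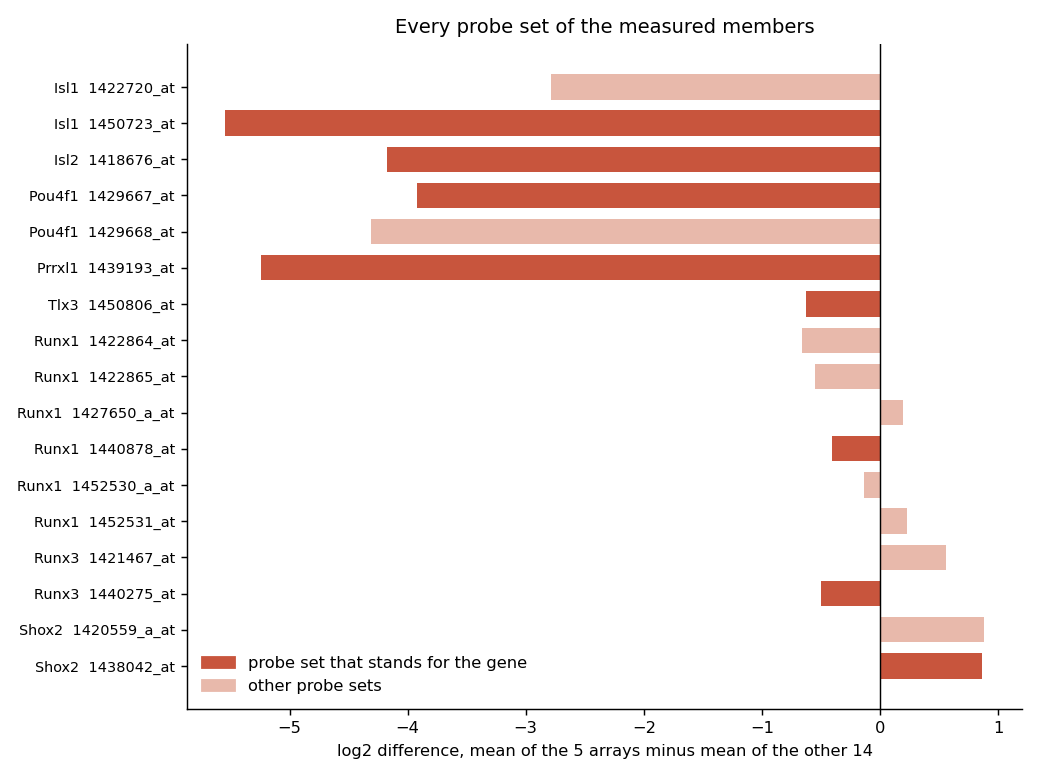
Mean log2 level on the 5 arrays set apart minus that on the other 14 (x axis) for each of the 17 probe sets of the measured members (y axis), dark bars for the probe set that stands for the gene. Bars of Isl1, Isl2, Pou4f1 and Prrxl1 reach from -2.79 to -5.54, those of Runx1 and Runx3 point both ways, and those of Shox2 are at 0.87 and 0.89.

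Of the 7 members tested, 4 had all 5 arrays set apart below all of the other 14, and 0 had them all above. Over all 13460 genes the shares were 4.39% below and 1.56% above. The median difference of the 7 was -3.92 on the log2 scale, against 0.05 over all genes, and it was -2.27 over the 8 measured members. Since members helped to choose the arrays, these figures carry no test. Without arrays DV706 and DV707, which had the highest Gapdh differences, the other 3 arrays set apart differed from the 14 by -5.90 for Isl1, -4.24 for Isl2, -3.86 for Pou4f1, -5.22 for Prrxl1 and 0.99 for Shox2. These 3 still include array DR716, whose Gapdh difference of 1.75 was above those of all 14.

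Other genes of the sensory neuron lineage were read from lists. Of 16 markers of sensory neuron classes, 13 were measured and 12 were above the filter. All 5 arrays set apart lay below the other 14 for 9 of the 12, against 4.39% of all genes, with a median difference of -3.75. Several of these markers had also served to choose the arrays. The 4 with the highest mean level were Pvalb, Prph, Ret and Ntrk2. Prph, the intermediate filament peripherin, was at 9.25 against 12.22, and Ret, the receptor subunit for GDNF family ligands, at 9.29 against 10.94. Pvalb, a calcium-binding protein of muscle-sense neurons that is also abundant in muscle, was at 11.33 against 11.63. Ntrk2, the receptor TrkB, whose truncated form is made by glia, was at 10.31 against 10.26.

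Of 29 related transcription factors and cofactors, 24 were measured and 15 lay above the filter, with a median difference of -0.36. In 2 of the 15 the arrays set apart all lay below the others, a pattern found in 4.39% of all genes. These were Onecut2, at 2.99 against 7.17, and Cux2, at 7.38 against 9.25, named after their values were seen. Prdm8, named in the same way, went in the other direction, at 10.16 against 8.86, with 4 of the 5 arrays set apart above all 14. The 4 with the highest mean were Maf, at 12.13 against 12.35, Ebf1, at 12.21 against 12.16, Klf7, at 11.83 against 12.21, and Cbfb, the DNA-binding partner of the Runx proteins, at 11.75 against 12.21. Early factors of sensory neurogenesis, also chosen after their values were seen, lay under the filter, with Neurog1 at 4.35 against 3.89 and Neurod1 at 4.55 against 4.79.

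Markers of other cells that can hold these factors were read beside them. Of 7 measured markers of sympathetic neurons, 4 lay above the filter with a median difference of 0.68. Slc6a2, the noradrenaline transporter, was at 11.38 against 10.57, Gata2 at 10.53 against 9.65 and Hand2 at 6.13 against 5.57. Th, tyrosine hydroxylase, which sympathetic neurons share with a class of touch neurons, was the exception at 4.91 against 8.79 with no overlap. Dbh and Phox2a, which define noradrenergic neurons, were under the filter at 5.58 against 5.39 and 3.41 against 3.28. Of 10 markers of motor neurons and spinal cord, which share Isl1, Isl2, Tlx3 and Prrxl1 with sensory neurons, 8 were under the filter. Among these 8, of which Mnx1 and Chat are named as defining motor neuron markers and after their values were seen, were Mnx1 at 3.02 against 2.83, Chat at 3.97 against 3.53, Olig2 at 4.10 against 4.58 and Lhx4 at 4.28 against 4.39. Of the other 2, Lbx1, which muscle precursors also make, was at 7.07 against 5.25 and Lmx1b at 6.11 against 5.87.

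Leukocyte markers, relevant to Runx1 and Runx3, lay above the filter in 9 of 10 cases, with a median difference of 0.56 and no gene in which the arrays set apart stood clear of the others. Their summed intensity ran from 14281 to 47503.6 on the arrays set apart and from 14110.5 to 31568 on the other 14. Csf1r, the macrophage growth factor receptor, was at 13.59 against 13.24, Cd68 at 10.78 against 10.91, and the mast cell proteases Cma1 and Tpsb2 at 12.61 against 11.74 and 11.15 against 10.58. Summed sensory class markers ran from 4008 to 13337 on the arrays set apart and from 13582 to 42919.9 on the others. Adipocyte markers differed by a median of -0.50 in 4 measured genes, Adipoq by -0.55, Fabp4 by -0.52, Cidec by -0.48 and Lep by -0.25. Their spread was wide, with Adipoq from 5.48 to 13.80 on the arrays set apart and from 8.04 to 13.17 on the others. Muscle markers differed by a median of 1.17 in 5 genes, with Tnnt3 at 11.71 against 10.20, Mylpf at 9.87 against 9.04, Acta1 at 9.29 against 8.79 and Myh4 at 9.11 against 7.95. Myh4 ran from 4.13 to 13.19 on the arrays set apart and from 4.07 to 13.998 on the others. The means of adipocyte and muscle markers therefore do not stand for a shift shared by the 5 arrays. Of the myelin genes with the highest means, Pmp22, Cnp and Egr2 differed by -0.06, -0.08 and -0.03. Mag, a myelin-associated glycoprotein, and Gjb1, a gap junction protein of myelin, both named after their values were seen, were lower, at 8.21 against 9.38 and 8.25 against 9.62, each with 4 of the 5 arrays set apart below all 14. How many of all genes share that pattern was not computed. The part of these cells in the levels of Runx1, Runx3 and Shox2 was not tested.

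**Figure D3:**
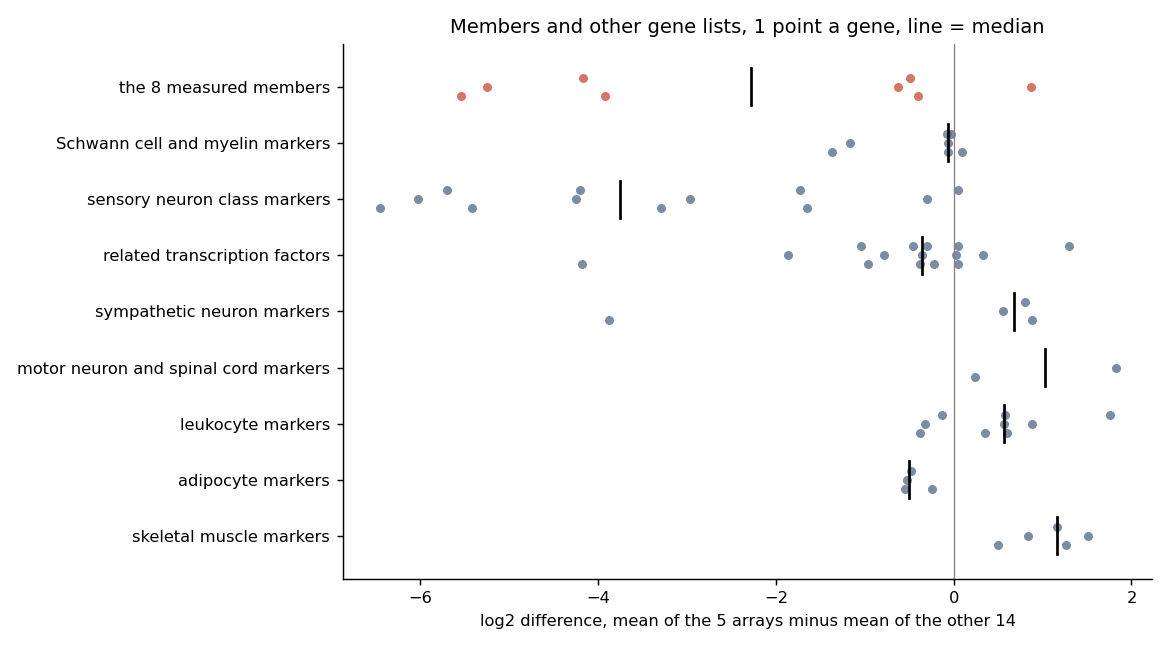
Mean log2 level on the 5 arrays set apart minus that on the other 14 (x axis) for the 8 measured members and for the genes above the filter of 8 other lists (y axis), 1 point a gene, with a line at the median. Medians are -2.27 for the members, -3.75 for sensory neuron class markers and -0.07 for Schwann cell and myelin markers.

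The title groups were compared in a model with a mean for each group, fitted with limma over all 13460 genes. Under vehicle, the means of Isl1, Isl2, Pou4f1 and Prrxl1 lay lower in diabetic than in control mice. The mean of Isl1 was 7.50 ± 3.40 (SD, n = 5) with diabetes and 10.44 ± 0.37 (SD, n = 4) without, a difference of -2.95 (SE 1.63). Isl2 differed by -1.71 (SE 1.26), Pou4f1 by -1.61 (SE 1.26) and Prrxl1 by -2.21 (SE 1.60). The spread among diabetic vehicle arrays was as large as these differences, since arrays DV706, DV707 and DV709 lay below all control values of these 4 genes while DV708 lay above them all, and DV710 did so for all but Isl1 (10.91 against 10.95 in CV703). Without arrays DV706 and DV707, which had the highest Gapdh 3' to 5' differences, the 4 were -1.70 for Isl1, -0.51 for Isl2, -0.47 for Pou4f1 and -0.56 for Prrxl1. Both arrays had also been set apart for low sensory neuron transcripts. Leaving them out therefore raises the diabetic vehicle means of such genes by construction, and the part of RNA quality was not tested. Runx1 differed by 0.16 (SE 0.28), Runx3 by -0.23 (SE 0.35) and Shox2 by 0.48 (SE 0.37). By limma, 0 of 7 members passed an adjusted p of 0.05, as did 0% of all genes. An unadjusted p under 0.05 was found for 0 of 7 members and 18.1% of all genes, and the smallest adjusted p of a member was 0.323, for Isl1.

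Rosiglitazone in diabetic mice gave means in the other direction for these genes, in a comparison that shares the diabetic vehicle arrays with the one before. Isl1 differed by 1.73 (SE 1.53), Isl2 by 1.61 (SE 1.19), Pou4f1 by 1.94 (SE 1.18) and Prrxl1 by 2.02 (SE 1.505). Without arrays DV706 and DV707, which raises the diabetic vehicle means of such genes by construction, they were 0.48, 0.41, 0.80 and 0.37. Runx1 differed by 0.27 (SE 0.26), Runx3 by 0.25 (SE 0.33) and Shox2 by -0.14 (SE 0.35). By limma, 0 of 7 members passed, 0 had an unadjusted p under 0.05 against 9.7% of all genes, and the smallest adjusted p was 0.52, for Pou4f1.

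Rosiglitazone in control mice gave small differences with wide errors, namely -0.65 (SE 1.63) for Isl1, -0.27 (SE 1.26) for Isl2, -0.0015 (SE 1.26) for Pou4f1 and -0.56 (SE 1.60) for Prrxl1. Runx1, Runx3 and Shox2 differed by 0.10 (SE 0.28), 0.07 (SE 0.35) and -0.12 (SE 0.37). Without array CR715, which had been set apart for low sensory neuron transcripts, the first 4 were 0.20, 0.61, 0.88 and 0.67. By limma, 0 of 7 passed, with 0 at an unadjusted p under 0.05 against 2.83% of all genes.

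Diabetic and control mice that both received rosiglitazone had differences of -0.57 (SE 1.53) for Isl1, 0.17 (SE 1.19) for Isl2, 0.33 (SE 1.18) for Pou4f1 and 0.37 (SE 1.505) for Prrxl1. Each of these groups held 1 array set apart. Without array CR715 the 4 were -1.41, -0.71, -0.55 and -0.86, and without array DR716 they were 0.78, 1.07, 0.83 and 1.34. Runx1 differed by 0.33 (SE 0.26), Runx3 by -0.05 (SE 0.33) and Shox2 by 0.46 (SE 0.35). By limma, 0 of 7 passed, and 0 had an unadjusted p under 0.05 against 1.29% of all genes.

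The interaction is the rosiglitazone difference in diabetic mice minus that in control mice. It was 2.38 (SE 2.24) for Isl1, 1.88 (SE 1.73) for Isl2, 1.94 (SE 1.72) for Pou4f1 and 2.58 (SE 2.19) for Prrxl1, and 0.17 (SE 0.38), 0.18 (SE 0.48) and -0.02 (SE 0.51) for Runx1, Runx3 and Shox2. Without arrays DV706 and DV707, again a shift by construction, the first 4 were 1.13, 0.68, 0.80 and 0.93. By limma, 0 of 7 passed, with 0 at an unadjusted p under 0.05 against 4.77% of all genes and a smallest adjusted p of 0.76, for Prrxl1. Across the 5 comparisons the medians of the 7 members were -1.61, 1.61, -0.12, 0.33 and 1.88 in the order given, against 0.03, -0.02, 0.003, 0.005 and -0.02 over all genes. Tlx3 entered only a fit with no filter, over 18193 genes, where its differences ran from -0.09 to 0.27 and its smallest adjusted limma p was 0.739. These errors do not show that the groups were alike.

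**Figure D4:**
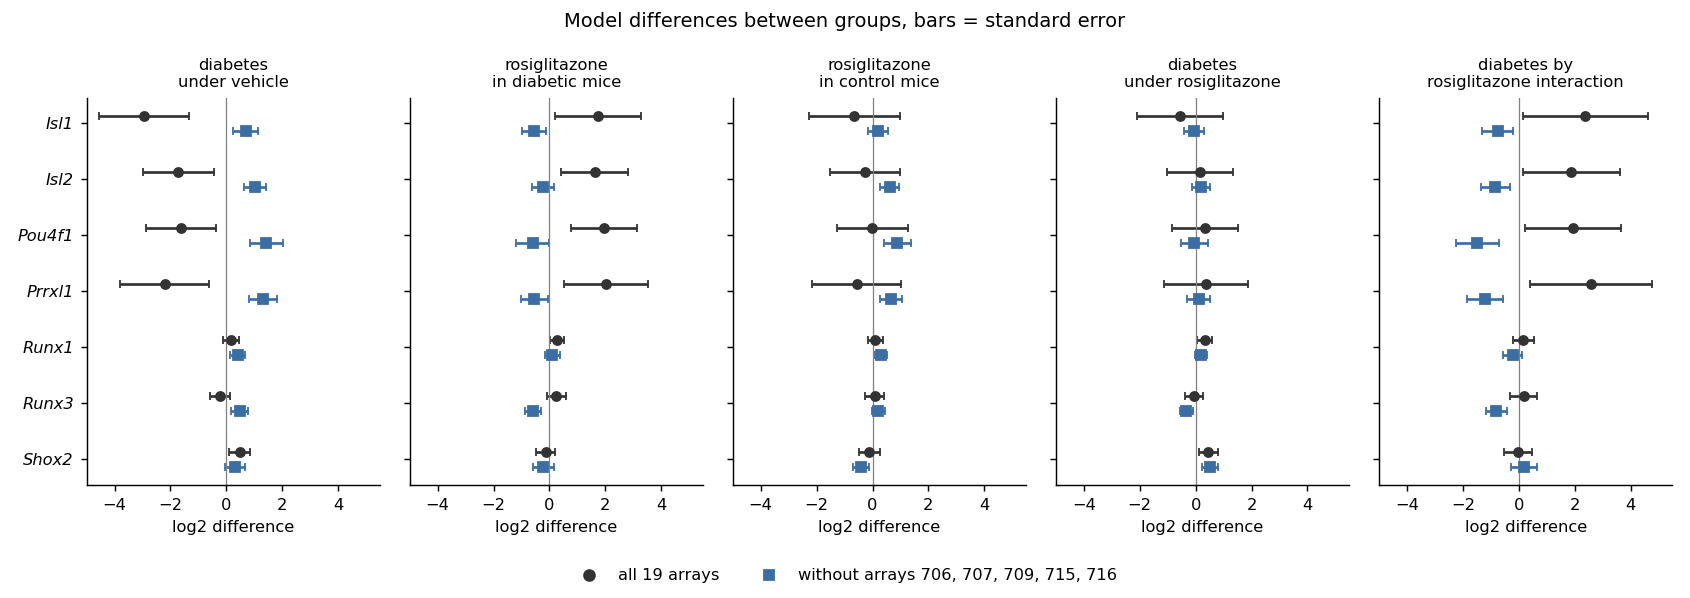
Log2 differences of the 7 tested members (y axis) from the limma model in the 5 comparisons (panels), with standard errors as bars, for all 19 arrays (circles) and without the 5 arrays set apart (squares). Circles of Isl1, Isl2, Pou4f1 and Prrxl1 lie left of 0 and squares right of 0 in diabetes under vehicle, and the reverse holds for rosiglitazone in diabetic mice and for the interaction.

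Without the 5 arrays, 4 control vehicle, 2 diabetic vehicle, 4 control rosiglitazone and 4 diabetic rosiglitazone arrays remained, and the direction under vehicle turned. The arrays left out were chosen by transcripts that include members, so leaving them out raises the diabetic vehicle means of such genes by construction, and the values are a description with no test. Isl1 was then higher in diabetic mice by 0.69 (SE 0.44), Isl2 by 1.04 (SE 0.40), Pou4f1 by 1.43 (SE 0.59) and Prrxl1 by 1.32 (SE 0.49). Arrays DV708 and DV710 both lay above all 4 control vehicle arrays for Isl2, Pou4f1 and Prrxl1, 3 of 7 members, a pattern found in 10.8% of all genes. Nothing is read from that share, since the arrays were chosen by sensory neuron transcripts, Pou4f1 among them.

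Among the 14 arrays, Isl2 and Prrxl1 varied with Isl1. Correlations were taken within these arrays alone, since the 19 fall into separate clusters, and 6 members were compared with Isl1. The 14 arrays were kept by sensory neuron transcripts that include Isl1 and Pou4f1, so the reference gene helped to choose them. The r and permutation p-values given below were computed within that choice and are a description of these arrays. Pearson's r was 0.86 for Isl2 (Spearman's rho 0.90), 0.85 for Prrxl1 (rho 0.89), 0.78 for Pou4f1 (rho 0.71) and 0.64 for Runx1 (rho 0.73). For Runx3 it was 0.18 (rho 0.25) and for Shox2 0.03 (rho 0.16). The points share the arrays, their amplification and their normalization.

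The two-sided permutation p-values of r, from 100000 resamples, were 5e-05 for Isl2, 1.2e-04 for Prrxl1, 9.4e-04 for Pou4f1, 0.0133 for Runx1, 0.544 for Runx3 and 0.931 for Shox2. Adjusted over the 13459 genes compared with Isl1 in the same way, the permutation p was 0.00452 for Isl2, 0.00699 for Prrxl1, 0.0265 for Pou4f1, 0.154 for Runx1, 0.885 for Runx3 and 0.994 for Shox2. Of all genes, 4.74% had a positive r with an adjusted p under 0.05 and 10.2% a positive r with an unadjusted p under 0.05. Permutation p-values of rho were 5e-05, 9e-05, 0.00646 and 0.00436 for Isl2, Prrxl1, Pou4f1 and Runx1, and 0.394 and 0.584 for Runx3 and Shox2. Their adjusted permutation p-values, in the same order, were 0.00687, 0.00939, 0.103, 0.0804, 0.819 and 0.901, so that of Pou4f1 was under 0.05 by r and above it by rho. Arrays were permuted across the groups, without regard to them. Isl1 and Pou4f1 both helped to choose the arrays, so no verdict on this pair is read from these values.

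The arrays farthest from the median of Isl1 were DR719 at 9.47 and CR711 at 9.98. Without them r was 0.92 for Isl2, 0.90 for Prrxl1, 0.85 for Pou4f1, 0.70 for Runx1, 0.36 for Runx3 and 0.31 for Shox2. After each group's mean was subtracted from its arrays, r was 0.96 for Isl2, 0.88 for Prrxl1, 0.78 for Pou4f1 and 0.71 for Runx1, and -0.02 and -0.08 for Runx3 and Shox2. A higher r with Isl1 than that of Isl2 was found for 1.24% of all genes, than that of Prrxl1 for 1.6%, of Pou4f1 for 3.42% and of Runx1 for 7.23%.

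**Figure D5:**
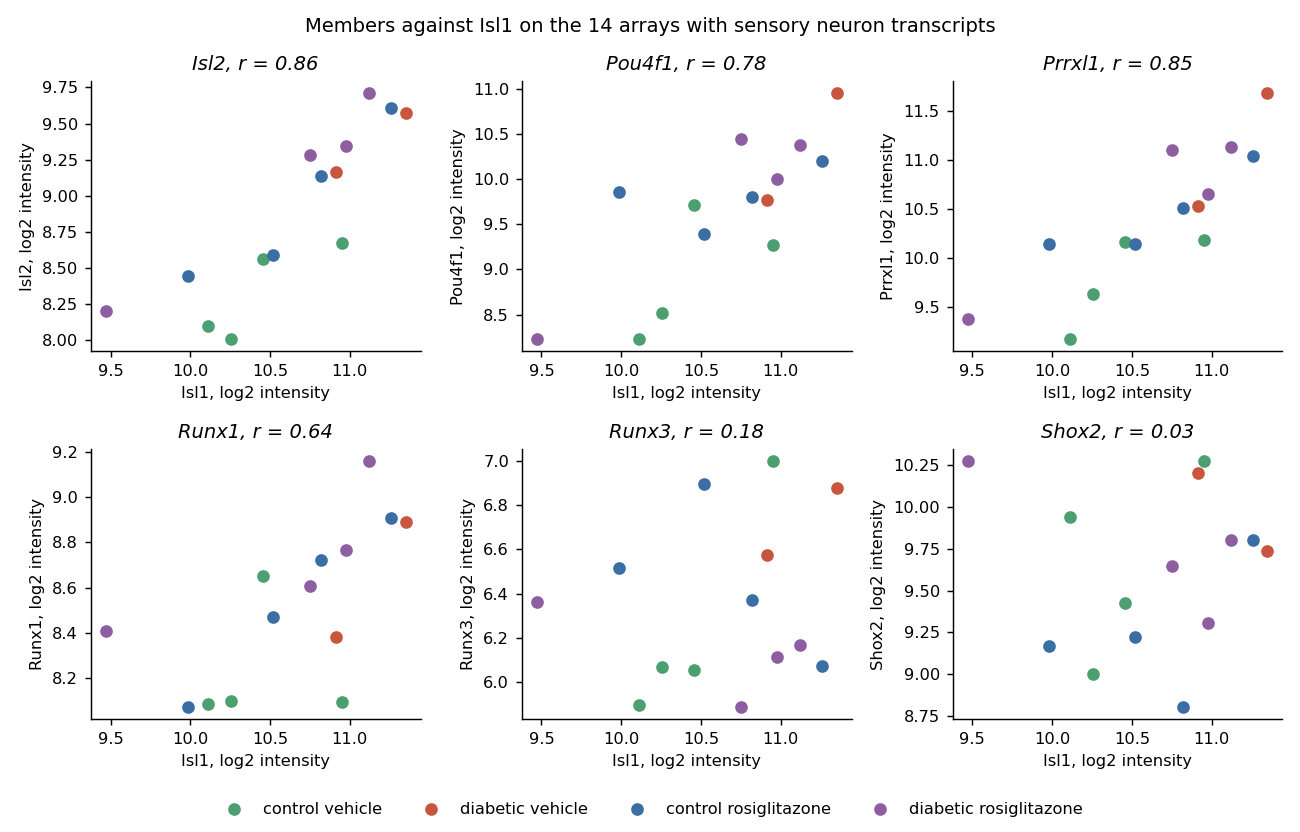
Log2 intensity of 6 members (y axes) against that of Isl1 (x axes) on the 14 arrays not set apart, 1 point an array, coloured by group. Points of Isl2, Prrxl1 and Pou4f1 follow Isl1 with r of 0.86, 0.85 and 0.78, and those of Runx3 and Shox2 spread without order at r of 0.18 and 0.03.

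Genes with profiles most like those of the widely varying members were found by the root mean square difference of log2 levels over the 19 arrays, each gene centred on its mean. Nearest to Isl1 were Scg2, a secretory granule protein, at 0.57, Slc7a14 at 0.58 and P2rx3, the ATP-gated channel of pain-sensing neurons, at 0.58. Nearest to Isl2 were Hoxd1, a homeobox gene of pain-sensing neurons, at 0.28, AI593442 at 0.31 and Elavl2, a neuronal RNA-binding protein, at 0.31. Cpne6, Trim36 and Grip1 were nearest to Pou4f1, at 0.47, 0.50 and 0.51. Nap1l2, a neuronal histone chaperone, Pirt, a regulator of the heat channel Trpv1, and Scn11a, the sodium channel Nav1.9, were nearest to Prrxl1, at 0.38, 0.40 and 0.43.

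Among the members themselves, Isl2 and Prrxl1 were closest, at 0.59, followed by Isl2 and Pou4f1 at 0.60 and Pou4f1 and Prrxl1 at 0.74. Isl1 was at 0.88 from Isl2, 0.94 from Prrxl1 and 1.22 from Pou4f1. Runx1, Runx3 and Shox2 were at 2.37, 2.36 and 2.94 from Isl1. Over the 19 arrays these distances are set largely by the gap between the 5 arrays and the 14, by which the arrays were chosen, so they are a description only.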

How the data were processed

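The authors deposited 1 linear intensity per probe set and array, made by RMA per the submitters' processing notes, which give no version. Software, settings and scan dates are not given in the sources used here. Levels are log2 of these intensities with no offset. Of 45101 probe sets, 64 controls were left out, and 34945 of the rest had 1 gene symbol in the platform annotation, 932 several and 9160 none listed. The gene identifiers of 34741 of the probe sets with 1 symbol were found in the RefSeq table, where 0 symbols changed. A gene was read from the probe set of greatest average level and tested when this average was above the 40th percentile of probe sets, 5.54. A model with 4 group means was fitted by lmFit and eBayes (limma 3.58.1, R 4.3.3) and adjusted by Benjamini-Hochberg over 13460 genes, at 0.05. The script was tested on simulated data. The design text names 5 mice a group and 1 control array left out by the authors, which was read as 1 array a mouse. The limma p-values therefore measure the spread between arrays within groups. That spread holds differences between mice, tissue content and RNA quality together. Permutation p-values of r and rho do not measure it. The number of arrays limits the precision.

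The members, gene lists and tests were chosen with earlier results of these data known. All 10 members are named, with 3 genes of nearest profile for each tested member whose range exceeds 3 and the 4 genes of each list with the highest mean. The plan was to adjust correlations with Isl1 over the members compared. They were adjusted over all genes instead, because the members were chosen with results known. Other settings tried were quantile normalization, an offset of 16, no filter, the mean of a gene's probe sets, leaving out each array, arrays 706 and 707, or the 5 arrays set apart. List genes that had no probe set of their own were not analysed here.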

Additional observations from a re-analysis of the deposited data

Results flagged for a closer look

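Of 32 combinations of a measured member and a group, 7 held an array whose gap to its nearest neighbour took up more of the group's range than Dixon's 95% critical value allows. Chance flags about 1 in 20 groups, and members on the same array share that array, so the 7 are not independent. The share of flagged combinations over all genes was not computed, so the count of 7 is not read as particular to the members. Moreover, 5 of the 7 fall on arrays CR715 and DR716, which were set apart for low sensory neuron transcripts, so these 5 restate that choice and are no further evidence of it. Array CR715 was the lowest of the control rosiglitazone arrays for Isl1 at 6.41, Isl2 at 4.56, Pou4f1 at 5.40 and Prrxl1 at 4.31, where the next arrays were at 9.98, 8.44, 9.39 and 10.14. Its Gapdh 3' minus 5' difference was 1.23. Array DR716 was the lowest of the diabetic rosiglitazone arrays for Isl1, at 3.83 with the next at 9.47, and its Gapdh difference was 1.75. Among control vehicle arrays, Runx1 was highest in array CV704 at 8.65, with the other 3 between 8.08 and 8.10, and Runx3 was highest in array CV703 at 6.999, with the next at 6.07. The part of the arrays' RNA quality or tissue content in these values was not tested. In the diabetic vehicle group, with 3 low arrays, no member was past the critical value.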

How the results depend on the processing

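No paired analysis was possible because the groups share no replicate numbers. Under every setting run, 0 members passed the adjusted threshold by limma in the 5 comparisons. At most 2 had an unadjusted limma p under 0.05 when 1 array was left out, where the share of all genes was not computed. Without the 5 arrays set apart, 3 had one for diabetes under vehicle, against 11.4% of all genes. Nothing is read from that count, since the arrays were chosen by sensory neuron transcripts, Isl1 and Pou4f1 among them. With quantile normalization, an offset of 16 or the mean of probe sets, 4 of 6 members had a permutation p of r with Isl1 under 0.05 before adjustment. The share of all genes was computed in the main setting only, where 10.2% had a positive r at that level. Under the 3 settings the median difference of the 8 measured members on the arrays set apart ran from -2.37 to -1.96. Single differences turned as follows, and the cause was not tested. Without the 5 arrays set apart, diabetes under vehicle gave 0.69 for Isl1, 1.04 for Isl2, 1.43 for Pou4f1, 1.32 for Prrxl1 and 0.47 for Runx3. Rosiglitazone in diabetic mice then gave -0.55, -0.24, -0.60, -0.54 and -0.59 for the same genes, and in control mice 0.20, 0.61, 0.88 and 0.67 for the first 4. Pou4f1 was at -0.051 for diabetes under rosiglitazone. The interaction was -0.75 for Isl1, -0.85 for Isl2, -1.48 for Pou4f1, -1.21 for Prrxl1, -0.21 for Runx1, -0.80 for Runx3 and 0.20 for Shox2, and without arrays DV706 and DV707 that of Shox2 was 0.086. With the mean of a gene's probe sets, Runx1 was -0.10 for diabetes under vehicle and -0.13 for rosiglitazone in control mice, and Runx3 was 0.090 for diabetes under vehicle, -0.031 for rosiglitazone in diabetic mice, 0.00078 for diabetes under rosiglitazone, -0.089 for the interaction and 0.031 on the arrays set apart. The r with Isl1 was then -0.0079 for Runx3 and -0.061 for Shox2, and it was -0.017 and -0.076 after centring on group means, a setting chosen after seeing the data. For rosiglitazone in control mice, Pou4f1 was at 0.019 with quantile normalization and 0.062 with an offset of 16.

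Leaving out 1 array at a time moved diabetes under vehicle from -3.91 to -2.06 for Isl1, from -2.45 to -1.15 for Isl2, from -2.52 to -0.95 for Pou4f1 and from -3.23 to -1.35 for Prrxl1, the first of each pair without DV708 and the other without DV709 for Isl1 and Pou4f1 and DV707 for Isl2 and Prrxl1. Rosiglitazone in diabetic mice ran from 0.85 (without DV709) to 3.08 (without DR716) for Isl1, from 1.05 (without DV707) to 2.51 (without DR716) for Isl2, from 1.28 (without DV709) to 2.85 (without DV708) for Pou4f1 and from 1.16 (without DV707) to 3.04 (without DV708) for Prrxl1. The interaction ran from 1.497 (without DV709) to 3.73 (without DR716) for Isl1 and, from without CR715, from 1.01 to 2.78 (without DR716) for Isl2, 1.06 to 2.85 (without DV708) for Pou4f1 and 1.35 to 3.61 (without DV708) for Prrxl1. The range was -0.45 (without DV708) to 0.071 (without DV709) for Runx3 in diabetes under vehicle. For rosiglitazone in diabetic mice Runx3 ran from -0.054 to 0.47 without the same arrays, and Shox2 from -0.38 (without DR716) to 0.033 (without DR718). For rosiglitazone in control mice the ranges were -1.01 to 0.20 for Isl1, -0.65 to 0.61 for Isl2, -0.32 to 0.88 for Pou4f1, -1.01 to 0.67 for Prrxl1 and -0.039 to 0.31 for Runx1, each from without CR712 to without CR715. They were -0.070 (without CR714) to 0.32 (without CV703) for Runx3 and -0.41 (without CR715) to 0.086 (without CV703) for Shox2. For diabetes under rosiglitazone they were -1.41 to 0.78 for Isl1, -0.71 to 1.07 for Isl2, -0.55 to 0.83 for Pou4f1 and -0.86 to 1.34 for Prrxl1, each from without CR715 to without DR716, and -0.19 (without DR716) to 0.087 (without CR714) for Runx3. The interaction ran from -0.042 (without CR715) to 0.31 (without CR712) for Runx1, from -0.13 (without DV709) to 0.39 (without DV708) for Runx3 and from -0.26 (without DR716) to 0.27 (without CR715) for Shox2. Differences near the low end of the intensity scale are limited by background.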
